A study of Rattus norvegicus with 13 samples.

Results

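The endoplasmic reticulum folding chaperones were read in the left ventricle of pregnant rats. They are a group of 10 genes, Hyou1, Sdf2l1, Hspa5, Hsp90b1, Pdia3, Pdia4, Pdia6, Calr, Dnajb9 and Manf, among 14217 genes with a probe set of their own on the array. The genes were chosen by the signals of Hyou1 and Sdf2l1, which were higher in methionine-fed hearts than in control hearts in an earlier look at the same arrays, so that comparison is described here without a test. All 10 were measured, by 12 probe sets that each carry a single gene symbol, and Hyou1 and Pdia3 have 2 probe sets each. A probe set is a group of short probes that read 1 transcript, and its level is given as a MAS5 signal, a linear intensity scaled within each array. Female Sprague-Dawley rats drank water with L-NAME at 1 g/L (L-NAME, 4 arrays), water with L-methionine at 9 g/L (Met-fed, 4 arrays) or water without either (control, 5 arrays) over days 1 to 20 of pregnancy, and hearts were taken on day 20 or 21. All groups ate standard chow and were pregnant. L-NAME inhibits NO synthases, and the methionine water was meant to raise homocysteine. The methods describe animals bred repeatedly and given methionine from their first pregnancy, which the sample labels do not mention. The labels do not say whether each array came from a separate rat, so p-values measure the spread between these samples only.

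Secreted and membrane proteins are folded in the endoplasmic reticulum, where chaperones bind unfolded chains and oxidoreductases form their disulfide bonds. Hspa5 (BiP) is the main Hsp70 chaperone there, Dnajb9 is one of its J-domain partners, Hyou1 exchanges its nucleotide, and Sdf2l1 is an associated factor. Hsp90b1 (Grp94) is the Hsp90 of this compartment and Calr is a calcium-binding chaperone for glycoproteins. Pdia3, which works with Calr, and Pdia4 and Pdia6 belong to the protein disulfide isomerases. Manf binds Hspa5 and can also be secreted. When unfolded proteins accumulate, the sensors Ern1 (IRE1), Eif2ak3 (PERK) and Atf6 start the unfolded protein response, in which Atf6 and the factor Xbp1 activate chaperone genes through an element called ERSE.

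Promoters are shown for the 4 of these genes that held an exact match to an element of the unfolded protein response, and for Sdf2l1, which held none but took part in the choice of the group. The RefSeq table of build GRCr8 held promoters for 7 of the 10 genes (Hyou1, Sdf2l1, Hspa5, Hsp90b1, Pdia4, Calr and Dnajb9), and it held none under the symbols Pdia3, Pdia6 and Manf. The 250 bases upstream of the annotated start were searched on both strands for ERSE (CCAAT and CCACG with 9 bases of any kind between them), ERSE-II (ATTGG and CCACG with 1 base of any kind between them) and the core of the unfolded protein response element (TGACGTG). ERSE was found in 3 of the 7 genes, Hspa5, Hsp90b1 and Calr, and in 22 of 33469 promoters in the table (0.0657%). ERSE-II was found in 1, Hyou1, and in 14 promoters (0.0418%), and TGACGTG was found in Hspa5 and Hyou1 and in 515 promoters (1.54%). In the sequences, which run 5′ to 3′ on the strand of the gene and end 1 base before its start, capitals mark these matches.
Hspa5: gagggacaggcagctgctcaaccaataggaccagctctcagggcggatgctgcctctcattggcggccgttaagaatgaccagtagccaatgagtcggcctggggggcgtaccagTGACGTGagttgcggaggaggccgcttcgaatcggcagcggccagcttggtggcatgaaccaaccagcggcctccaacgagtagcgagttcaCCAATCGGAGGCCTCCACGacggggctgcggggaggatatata
Hsp90b1: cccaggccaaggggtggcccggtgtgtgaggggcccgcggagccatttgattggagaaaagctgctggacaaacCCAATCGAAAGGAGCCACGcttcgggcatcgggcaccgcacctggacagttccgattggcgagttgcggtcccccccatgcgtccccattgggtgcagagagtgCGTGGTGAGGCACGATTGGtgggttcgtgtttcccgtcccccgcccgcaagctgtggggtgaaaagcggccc
Calr: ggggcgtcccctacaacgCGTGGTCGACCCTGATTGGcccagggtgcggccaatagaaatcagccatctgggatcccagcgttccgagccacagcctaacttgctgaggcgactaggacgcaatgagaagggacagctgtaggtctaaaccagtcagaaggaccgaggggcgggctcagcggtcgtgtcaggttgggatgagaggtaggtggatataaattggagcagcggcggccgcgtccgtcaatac
Hyou1: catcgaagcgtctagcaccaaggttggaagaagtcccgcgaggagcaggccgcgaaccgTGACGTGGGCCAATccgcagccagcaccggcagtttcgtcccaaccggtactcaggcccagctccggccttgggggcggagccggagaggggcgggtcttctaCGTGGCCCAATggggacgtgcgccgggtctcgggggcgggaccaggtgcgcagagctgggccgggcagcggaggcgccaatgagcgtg
Sdf2l1: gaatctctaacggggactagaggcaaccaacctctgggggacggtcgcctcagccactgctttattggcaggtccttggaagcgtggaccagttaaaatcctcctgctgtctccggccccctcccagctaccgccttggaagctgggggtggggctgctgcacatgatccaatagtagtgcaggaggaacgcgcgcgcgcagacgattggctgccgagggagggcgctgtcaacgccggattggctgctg
The promoter of Hspa5 (chr3:38452766-38453015, plus strand) held 1 ERSE, 43 to 25 bases upstream of the start. That of Hsp90b1 (chr7:23012294-23012543, minus strand) held 2, the one nearer to the start on the opposite strand. Calr (chr19:40213117-40213366, plus strand) held 1 on the opposite strand. Hyou1 (chr8:53602632-53602881, plus strand) held 2 copies of ERSE-II on the opposite strand, 1 of which overlaps the TGACGTG. A second annotated start of Hyou1 lies downstream, and none of these letters were found in its window. Sdf2l1 (chr11:97376628-97376877, plus strand), Pdia4 and Dnajb9 held no exact match, which says only that these letters are not in these windows.

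The L-NAME arrays differed from the other 9 in properties of the whole array. The median signal was 34.2 to 36.9 on L-NAME, 25.8 to 29.2 on Met-fed and 25.7 to 27.2 on control arrays. The log2 ratio of 3′ to 5′ beta-actin signal, a measure of RNA quality and labelling, was 2.32 to 2.70, 3.32 to 3.71 and 3.31 to 3.67 in the same order, and that of Gapdh was 0.44 to 0.66, 0.98 to 1.26 and 1.04 to 1.31. The mean of 18 hybridization spike-ins was 9.80 to 9.97 on the log2 scale on L-NAME, 10.02 to 10.27 on Met-fed and 10.16 to 10.41 on control arrays. Since every L-NAME array has these properties and no other array has them, L-NAME treatment and anything else that set these arrays apart cannot be told apart. Over all 31042 probe sets tested, the median log2 difference of L-NAME from control was 0.22, and that of Met-fed from control was 0.004. The defining cardiomyocyte markers Myh6, Tnnt2 and Pln had mean signals of 2820, 2847 and 2399 in L-NAME and 4800, 4068 and 3716 in control hearts. In whole tissue, fewer cells of a type and less RNA per cell cannot be told apart.

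**Figure D1:**
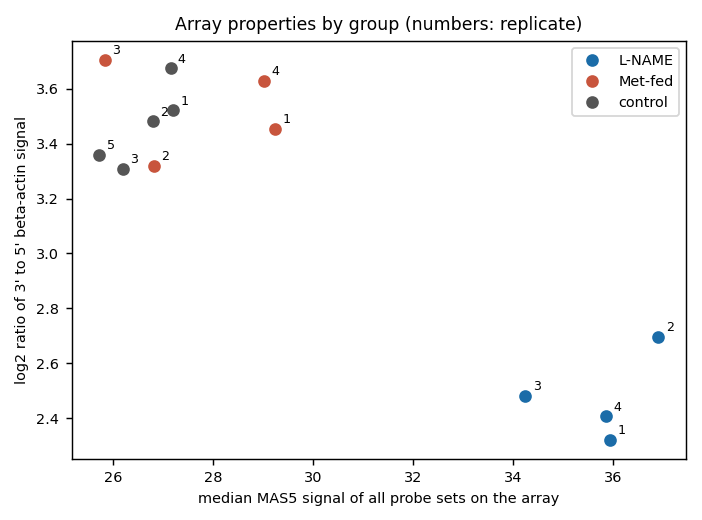
Median MAS5 signal of all probe sets (horizontal axis) against the log2 ratio of 3′ to 5′ beta-actin signal (vertical axis), 1 point per array with its replicate number, for L-NAME (n = 4), Met-fed (n = 4) and control (n = 5). The L-NAME arrays lie at median signals of 34.2 to 36.9 and ratios of 2.32 to 2.70, away from the other 9 arrays.

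In Met-fed hearts all 10 chaperones had a mean log2 signal above that of control hearts, and the differences ran from 0.02 for Calr to 0.93 for Hyou1 with a median of 0.46. Of all probe sets, 50.7% had a difference above 0 in the same comparison. No probe set of the 31042 passed an adjusted p of 0.05 there in limma (lowest 0.13), while 3319 had an unadjusted p under 0.05. Hyou1, by its brighter probe set (1371442_at), had signals of 450, 244, 340 and 266 in Met-fed and 207, 146, 190, 109 and 204 in control hearts. Every Met-fed array lay above every control array, and the log2 difference was 0.93 ± 0.20 (SE, 1.90-fold). Sdf2l1 (1373043_at) had 333, 225, 303 and 276 in Met-fed and 191, 95.7, 170, 137 and 199 in control hearts, again without overlap, with a log2 difference of 0.87 ± 0.19. These 2 genes were the reason for the choice of the group, and their values are a description.

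Manf was the third chaperone without overlap between these groups, so that 3 of 10 were higher on every Met-fed array, against 1.34% of all probe sets, and 0 of 10 were lower, against 1.55% (2.89% in either direction). Nothing is read from this count, since the comparison chose the group. Manf (1372352_at) had 502, 351, 411 and 350 in Met-fed and 329, 276, 282, 229 and 306 in control hearts, a log2 difference of 0.50 ± 0.12. For Hspa5 (1370283_at) the signals were 2224, 1884, 2062 and 1890 in Met-fed and 1876, 1528, 1644, 1387 and 1884 in control hearts. The lowest Met-fed arrays and the highest control arrays of Hspa5 met at the same level, and the difference was 0.28 ± 0.09.

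Among the disulfide isomerases, Pdia4 (1370007_at) had the widest spread, with 258, 84.8, 106 and 134 in Met-fed and 128, 97.8, 75.1, 64.2 and 53.6 in control hearts. Its groups overlapped, and the log2 difference was 0.73 ± 0.28. Pdia6 (1370859_at) had 886, 661, 777 and 691 in Met-fed and 649, 478, 689, 540 and 664 in control hearts, with a difference of 0.32 ± 0.11. The brighter probe set of Pdia3 (1398788_at) had 904, 476, 524 and 699 in Met-fed and 704, 500, 462, 381 and 368 in control hearts, a difference of 0.42 ± 0.19. In Pdia6 and Pdia3 the groups overlapped as well.

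The larger chaperone Hsp90b1 (1388331_at) had 960, 536, 525 and 701 in Met-fed and 646, 463, 435, 408 and 370 in control hearts, and its difference was 0.53 ± 0.17. The smallest differences were those of the J-domain protein Dnajb9 (0.15 ± 0.10) and of Calr (0.02 ± 0.10). Dnajb9 (1387116_at) had 1572, 1529, 1509 and 1315 in Met-fed and 1276, 1501, 1453, 1104 and 1383 in control hearts. Calr (1398750_at) had 1260, 1196, 1340 and 1357 in Met-fed and 1219, 1449, 1368, 993 and 1349 in control hearts, so that its Met-fed arrays lay within the range of the controls.

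**Figure D2:**
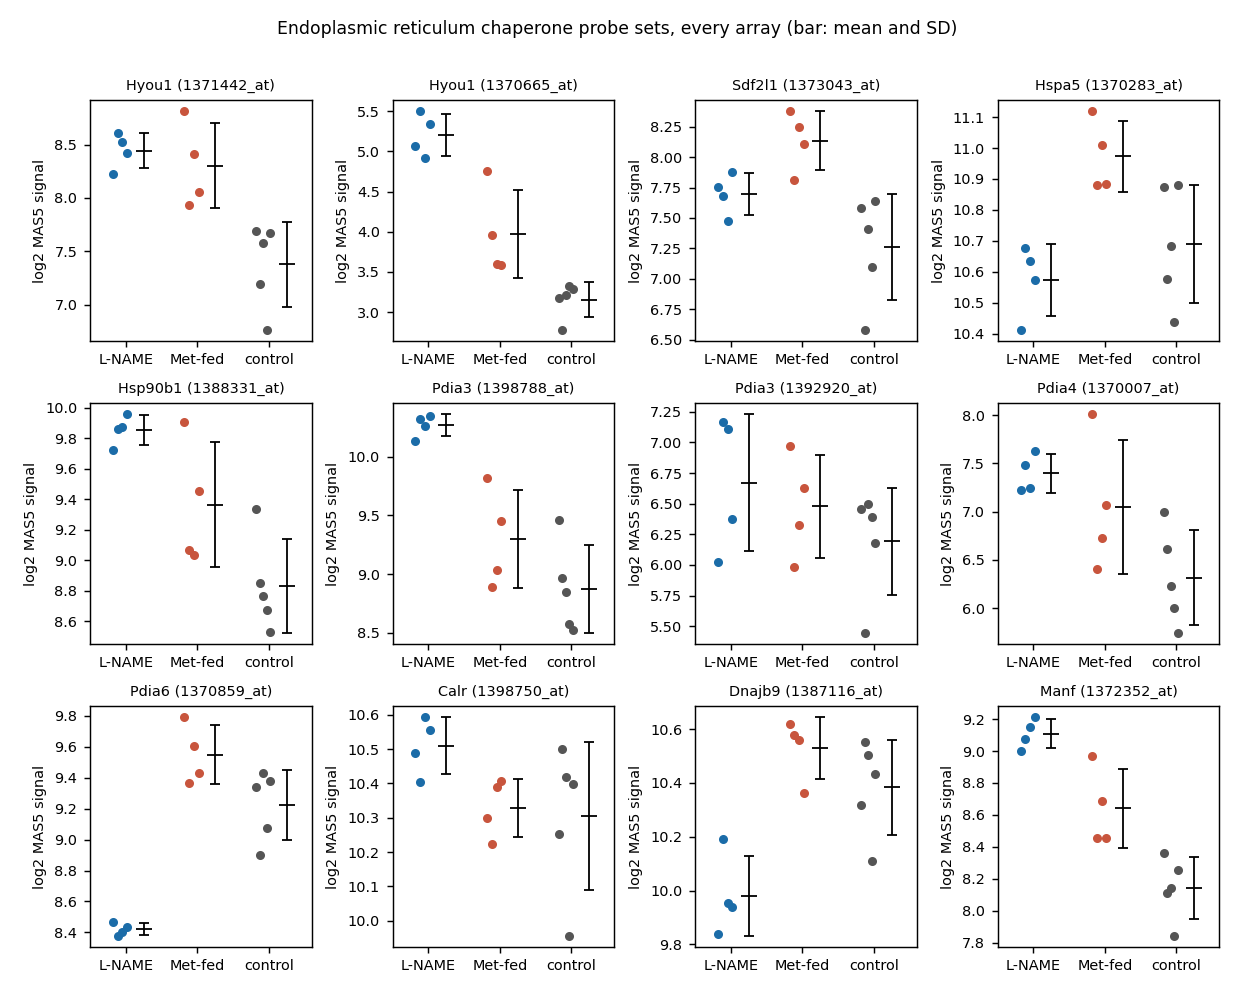
Log2 MAS5 signal of the 12 chaperone probe sets on every array, with a vertical scale for each probe set, in L-NAME (n = 4), Met-fed (n = 4) and control (n = 5) hearts and a bar for the mean and SD. The Met-fed points of Hyou1, Sdf2l1 and Manf lie above all control points, while the L-NAME points of Pdia6 lie under all others.

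The Met-fed arrays did not contribute equally. Met-fed replicate 1 was the highest of its group for 9 of the 10 chaperones, all but Calr, and its median deviation from the group mean over the 10 was 0.29 on the log2 scale. Met-fed replicate 2 was above the group mean for 1 of the 10. Among the controls, replicate 1 was the highest for 5 chaperones and above the mean for 8, and replicate 4 was above the mean for 0. Met-fed replicates 1 and 4 also had the highest median signals of their group, 29.2 and 29.0, against 26.8 and 25.8 on the other 2 arrays. The part of this array property in the chaperone values was not tested. Without Met-fed replicate 1 the median difference of the 10 was 0.30 in place of 0.46, and it was 0.41 for Pdia4, 0.35 for Hsp90b1 and 0.25 for Pdia3. Hyou1 then stood at 0.76. Without Met-fed replicate 2 the count of chaperones without overlap was 5 higher and 0 lower, while the share of all probe sets was 2.62% higher and 2.87% lower. Without control replicate 4 the difference of Dnajb9 was 0.08 and that of Calr -0.06.

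**Figure D3:**
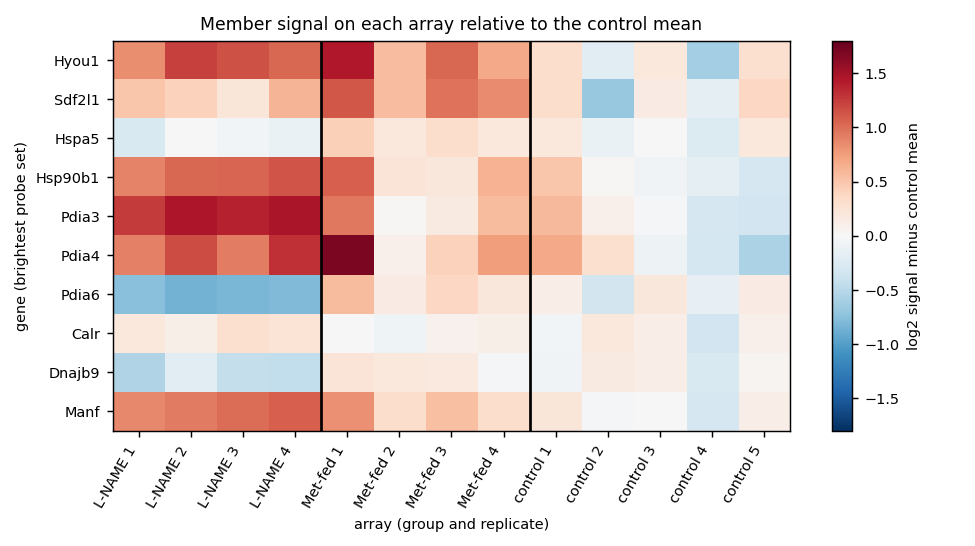
Log2 signal of each chaperone (rows, brightest probe set) on each of the 13 arrays (columns, by group and replicate) minus the mean of the control arrays, as a colour scale. Met-fed replicate 1 is the strongest Met-fed column for 9 of 10 genes, and the L-NAME columns are red for Hyou1, Hsp90b1, Pdia3, Pdia4 and Manf and blue for Pdia6 and Dnajb9.

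L-NAME hearts split the chaperones. Hyou1, Hsp90b1, Pdia3, Pdia4 and Manf rose by 1.96 to 2.63-fold relative to control, and Pdia6 and Dnajb9 fell. Hspa5 and Calr did not pass the test, and Sdf2l1 differed by 0.44 on the log2 scale. The L-NAME arrays played no part in the choice of the genes, but the control signals of Hyou1 and Sdf2l1 did, so no p is given for these genes on their own. In limma with Benjamini-Hochberg adjustment over all probe sets, 5 of the 10 were higher at an adjusted p under 0.05, against 28.7% of all probe sets, and 2 of the 10 were lower, against 17%. Among the brighter of 2 equal parts of the probe sets, split by mean signal, the background was 35.7% higher and 29.3% lower, and the brightest probe sets of all 10 genes lie there. The counts over 10 include Hyou1 and Sdf2l1. Without these 2 genes the count of chaperones called was 4 higher and 2 lower of 8. The count of 7 stands in a comparison where 45.7% of all probe sets were called. With probe sets dimmer than the median signal left out, the same 7 of 10 were called. The share of the probe sets kept was then 67.3%, near that of the chaperones. The median difference of the 10 was 0.70, against 0.22 over all probe sets. Every L-NAME array lay above every control array for 5 of the 10, against 25.8% of all probe sets. It lay below for 1 of the 10, against 14.5% (40.3% in either direction). The split was 4 higher and 3 lower with each array centred on its median signal, against 16% and 29.7% of all probe sets. With quantile normalization it was 6 higher and 1 lower, against 22% and 21.9%.

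Pdia3 had the largest rise by the brightest probe sets. Its signals were 1125, 1283, 1230 and 1302 in L-NAME hearts, against 704, 500, 462, 381 and 368 in control hearts, and the groups lay well apart. The log2 difference was 1.39 ± 0.19 (adjusted p = 1.4e-05 in limma). Hsp90b1 had 844, 932, 941 and 995 in L-NAME and 646, 463, 435, 408 and 370 in control hearts, a log2 difference of 1.02 ± 0.17 (adjusted p = 0.000113 in limma). Pdia4 had 149, 180, 151 and 199 in L-NAME and 128, 97.8, 75.1, 64.2 and 53.6 in control hearts, a difference of 1.08 ± 0.28 (adjusted p = 0.00483 in limma). In all of these, control replicate 1 was the control closest to the L-NAME arrays. By the exact permutation test, 2-sided, p was 0.00794 for Pdia3 and 0.0159 for both Hsp90b1 and Pdia4.

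Hyou1, the nucleotide exchange factor of Hspa5, had 298, 390, 367 and 342 in L-NAME hearts, against 207, 146, 190, 109 and 204 in control hearts. The log2 difference was 1.06 ± 0.20. Manf had 513, 540, 568 and 593 in L-NAME and 329, 276, 282, 229 and 306 in control hearts, a difference of 0.97 ± 0.12 (adjusted p = 6.4e-06 in limma, and p = 0.00794 by the exact permutation test, 2-sided, the smallest that 4 against 5 arrays allow). For both genes every L-NAME array lay above every control array, as was so for 25.8% of all probe sets. With array median centring these rises were smaller, at 0.64 for Hyou1, 0.60 for Hsp90b1 and 0.54 for Manf, and that of Pdia4 was 0.65 with an adjusted p of 0.0516 in limma.

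Pdia6, a disulfide isomerase that associates with Hspa5, ran the other way from Pdia3 and Pdia4. Its signals were 354, 333, 338 and 346 in L-NAME hearts, against 649, 478, 689, 540 and 664 in control hearts. The 4 L-NAME values lay within a narrow band under all controls, and the log2 difference was -0.80 ± 0.11 (adjusted p = 2.1e-05 in limma, and p = 0.00794 by the exact permutation test, 2-sided). With array median centring it was -1.23. Dnajb9 had 916, 1168, 991 and 982 in L-NAME and 1276, 1501, 1453, 1104 and 1383 in control hearts. L-NAME replicate 2 lay above control replicate 4, and the log2 difference was -0.40 ± 0.10 (adjusted p = 0.00247 in limma). The fall of Dnajb9 depended on the scaling, at -0.83 with array median centring and -0.20 with quantile normalization, where the adjusted p was 0.119 in limma.

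Hspa5 had 1362, 1636, 1590 and 1522 in L-NAME and 1876, 1528, 1644, 1387 and 1884 in control hearts, and the groups overlapped. The log2 difference was -0.12, with a 95% interval from -0.32 to 0.08 (adjusted p = 0.34 in limma). With quantile normalization it was 0.22, and with array median centring -0.54 and past the threshold. Calr had 1437, 1354, 1545 and 1505 in L-NAME and 1219, 1449, 1368, 993 and 1349 in control hearts, a difference of 0.21 with an interval from 0.004 to 0.41 (adjusted p = 0.091 in limma). It was 0.50 and past the threshold with quantile normalization, -0.22 with array median centring, and past the threshold without control replicate 2 (0.25). Sdf2l1 had 216, 205, 178 and 235 in L-NAME and 191, 95.7, 170, 137 and 199 in control hearts, a difference of 0.44 with an interval from 0.04 to 0.83. It was 0.52 without control replicate 1, 0.53 without control replicate 5 and 0.01 with array median centring. By the exact permutation test, 2-sided, p was 0.278 for Hspa5 and 0.119 for Calr on the deposited scale.

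**Figure D4:**
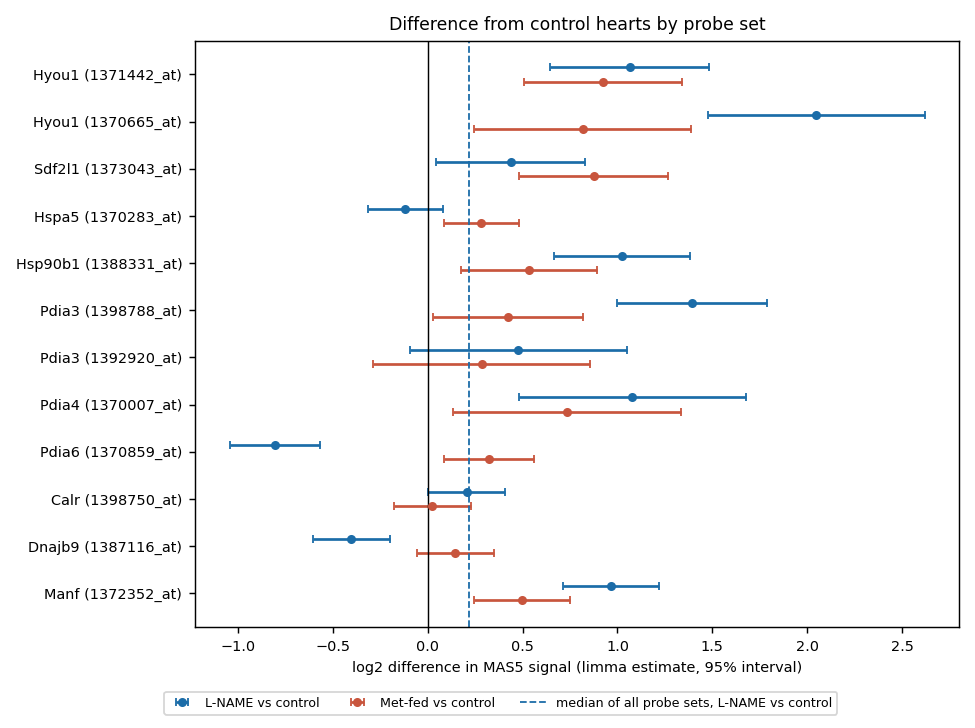
Log2 difference in MAS5 signal from control hearts for each of the 12 probe sets (rows), with the limma estimate as a point and the 95% interval as a line, for L-NAME (n = 4 against 5) and Met-fed (n = 4 against 5). The dashed line marks the median of all probe sets for L-NAME (0.22), and Pdia6 and Dnajb9 lie under 0 for L-NAME and above 0 for Met-fed.

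The pairs of probe sets of Hyou1 and Pdia3 differed in size. The dimmer probe set of Hyou1 (1370665_at) had 33.5, 45.2, 30.2 and 40.3 in L-NAME, 27.0, 15.6, 12.1 and 12.0 in Met-fed and 9.01, 6.87, 9.26, 10.1 and 9.80 in control hearts. The 3 groups did not overlap in this probe set, and the log2 difference from control was 2.05 ± 0.27 for L-NAME and 0.82 ± 0.27 for Met-fed. Its control and Met-fed signals lay under the median of 31.9 over all probe sets, so the sizes of these log2 differences are uncertain. The dimmer probe set of Pdia3 (1392920_at) had 65.2, 144, 138 and 83.2 in L-NAME, 125.7, 63.4, 80.2 and 99.1 in Met-fed and 88.0, 43.6, 90.2, 83.9 and 72.4 in control hearts. It overlapped in all 3 groups, with a difference of 0.48 ± 0.27 for L-NAME (adjusted p = 0.166 in limma) against 1.39 by the brighter probe set. With both probe sets of a gene averaged, L-NAME differed from control by 1.56 for Hyou1, with the dim probe set included, and 0.94 for Pdia3.

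L-NAME and Met-fed hearts are set side by side as a description, since the Met-fed arrays took part in the choice and both differences share the control arrays. Every L-NAME array lay above every Met-fed array for Pdia3 and Manf and below it for Hspa5, Pdia6 and Dnajb9, which is 2 of 10 higher and 3 of 10 lower against 25.6% and 14% of all probe sets (39.6% in either direction). For Pdia6 the log2 difference of L-NAME from Met-fed was -1.13 ± 0.12, for Dnajb9 -0.55 ± 0.10 and for Hspa5 -0.40 ± 0.10. For Pdia3 it was 0.97 ± 0.20 and for Manf 0.47 ± 0.13. Hyou1 differed by 0.14 by its brighter probe set, with an interval from -0.30 to 0.58, and by 1.23 ± 0.28 without overlap by its dimmer one. Hsp90b1 differed by 0.49 ± 0.18, Sdf2l1 by -0.44 ± 0.20, Calr by 0.18 ± 0.10 and Pdia4 by 0.34, with an interval from -0.29 to 0.97, and their groups overlapped. The 3 genes with an exact ERSE in the promoters printed above did not share a size of difference from control. Hsp90b1 stood at 1.02 in L-NAME and 0.53 in Met-fed hearts, Hspa5 at -0.12 and 0.28, and Calr at 0.21 and 0.02, in the same order of groups.

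Other genes of the same compartment were read from 5 lists with 110 genes measured, each by its brightest probe set. In L-NAME hearts 54 were higher and 25 lower than in control hearts at an adjusted p under 0.05 in limma, with a median log2 difference of 0.35, against 28.7% higher, 17% lower and a median of 0.22 over all probe sets. The split was 27 higher and 41 lower with array median centring, against 16% and 29.7% of all probe sets, and 47 and 24 with quantile normalization, against 22% and 21.9%. With probe sets dimmer than the median signal left out, 52 of 102 were higher and 25 lower, against 36.7% and 30.6% of the probe sets kept. The counts of each list are given beside the shares of all probe sets with the same scaling. On the deposited scale these shares are smaller than those of the brighter ones. In Met-fed hearts 83 of the 110 had a difference above 0, with a median of 0.15, as a description.

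Of 11 sensors, transcription factors and proteases of the unfolded protein response, 4 rose in L-NAME hearts (Atf6, Atf4, Eif2ak3 and Creb3). Another 3 fell (Nfe2l1, Xbp1 and the protease Mbtps1). Both counts are near the 28.7% higher and 17% lower of all probe sets. The sensor Ern1 had no probe set with its symbol alone and was not read. Under array median centring the split was 2 higher and 4 lower, against 16% and 29.7% of all probe sets. Atf6, the sensor that is cut to release a transcription factor, had 400, 447, 450 and 448 in L-NAME and 278, 288, 171, 200 and 139 in control hearts, a log2 difference of 1.07 ± 0.20 (adjusted p = 0.00027 in limma). Eif2ak3, the kinase that slows translation, differed by 0.95 ± 0.21, and Atf4, the factor translated under its control, by 0.68 ± 0.13, although Atf4 lost its call with array median centring (0.25). Nfe2l1, a membrane-bound transcription factor of proteasome genes, fell by 0.69 on the log2 scale. Xbp1, which activates chaperone genes after splicing by Ern1, fell by 0.34, and the spliced form was not measured separately.

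Of 10 genes of the PERK arm and of stress-induced cell death, 5 rose in L-NAME hearts and 0 fell in limma as deposited, against 28.7% and 17% of all probe sets. The split was 3 and 1 with array median centring, against 16% and 29.7%. With quantile normalization it was 3 and 0, against 22% and 21.9%. Ddit3 (CHOP), the transcription factor at the end of this arm, had 588, 403, 377 and 473 in L-NAME and 255, 219, 197, 270 and 232 in control hearts, a log2 difference of 0.96 ± 0.13 (adjusted p = 1.7e-05 in limma). Its Met-fed signals were 201, 224, 186 and 232, a difference of -0.15 ± 0.13 from control. Ppp1r15b and Ppp1r15a, which bring a phosphatase to eIF2alpha, rose by 0.74 ± 0.11 and 0.97 ± 0.28. With array median centring they stood at 0.32 and 0.55, and Ppp1r15a lost its call there and with quantile normalization (0.61). Casp12, a caspase linked to this compartment in rodents, rose by 1.12 ± 0.22 from a dim signal, with means of 65.5 in L-NAME and 30.3 in control hearts.

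Of 40 other folding factors, 25 rose and 6 fell in L-NAME hearts, with a median log2 difference of 0.61, against 28.7%, 17% and 0.22 over all probe sets. With array median centring the counts were 13 and 11, against 16% and 29.7%. With quantile normalization they were 20 and 8, against 22% and 21.9%. The thioredoxin-domain protein Txndc11 rose by 2.06 ± 0.13 and the prolyl isomerase Fkbp2 by 1.29 ± 0.11. In Met-fed against control hearts these were the 2 of 40 that were higher without overlap, and 0 were lower. The shares of all probe sets there were 1.34% and 1.55%. As a description, Txndc11 differed by 0.53 ± 0.13 and Fkbp2 by 0.49 ± 0.11 in that comparison. The subunits of glucosidase II, which trims the sugars of new glycoproteins, went opposite ways. Ganab rose by 1.90 ± 0.14, with means of 307 in L-NAME and 82.9 in control hearts, and Prkcsh fell by 1.84 on the log2 scale, with means of 216 in L-NAME and 770.2 in control hearts.

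Of 23 genes of degradation from the endoplasmic reticulum, 11 rose and 5 fell in L-NAME hearts, against 28.7% and 17% of all probe sets. With array median centring 5 rose and 9 fell, against 16% and 29.7%. With quantile normalization 9 rose and 6 fell, against 22% and 21.9%. Ube2g2, a ubiquitin-conjugating enzyme, rose by 1.79 ± 0.14, Nploc4, a cofactor of the extracting ATPase, by 1.18 ± 0.14, and Faf2 by 0.95 ± 0.12. Erlec1, a lectin of this pathway, fell by 1.05 on the log2 scale. Of 26 genes of translocation and N-glycosylation, 9 rose and 11 fell, against the same 28.7% and 17%, with a median of 0.02. The counts were 4 and 16 with array median centring and 12 and 7 with quantile normalization, against the shares just given for each scaling. Ddost, a subunit of oligosaccharyltransferase, rose by 1.59 ± 0.15, while Dad1 of the same complex fell by 1.01, Ssr4 of the translocon-associated complex by 0.84 and Sec62 by 0.67 on the log2 scale.

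Related chaperones outside the endoplasmic reticulum were read as well. Of 17 paralogs in cytosol and mitochondria, 3 rose and 5 fell in L-NAME hearts, against 28.7% and 17% of all probe sets, with a median log2 difference of -0.05. With array median centring the counts were 2 and 11, against 16% and 29.7%. With quantile normalization they were 6 and 4, against 22% and 21.9%. Hsp90ab1, a cytosolic counterpart of Hsp90b1, rose by 0.78 ± 0.12 (0.36 with array median centring), and Hspa4, a cytosolic relative of Hyou1, by 0.60 ± 0.10 (0.18 and no call with array median centring). The J-domain proteins Dnaja3 of mitochondria and Dnajb6 of cytosol ran opposite ways. Dnaja3 rose by 1.59 ± 0.14, and Dnajb6 fell, with mean signals of 1154 in L-NAME and 2307 in control hearts. In Met-fed hearts 9 of the 17 were above 0 with a median of 0.02, as a description.

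**Figure D5:**
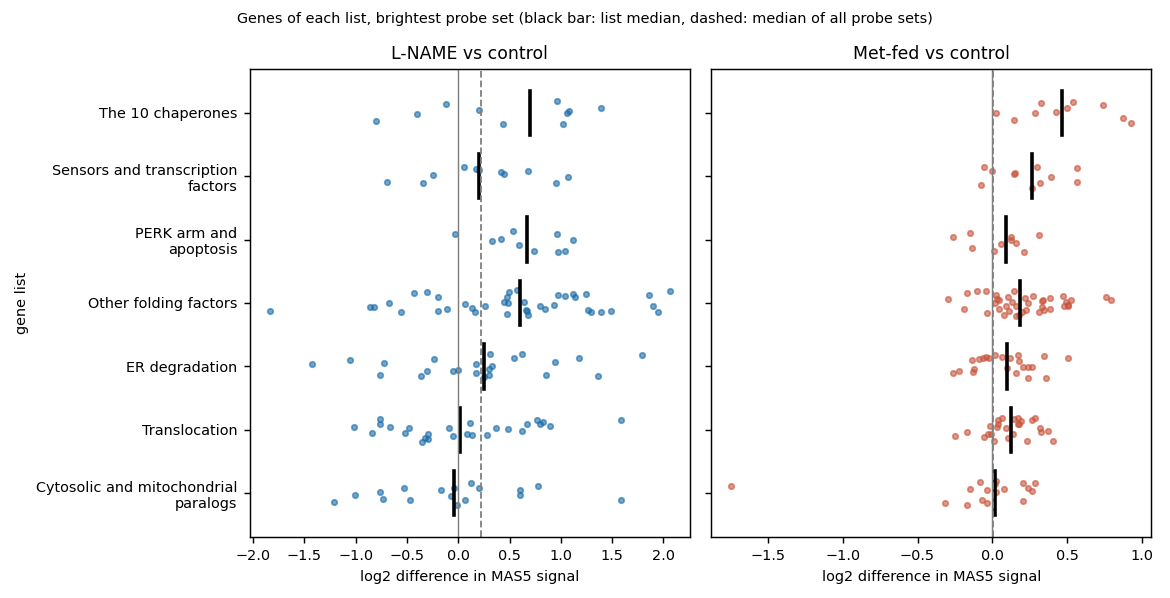
Log2 difference in MAS5 signal from control for each gene of the 7 lists (rows, 1 point per gene, brightest probe set) in L-NAME (left) and Met-fed (right) hearts, with the list median as a black bar and the median of all probe sets as a dashed line. The list medians run between -0.05 and 0.70 in L-NAME hearts, and the Met-fed values of the 10 chaperones took part in their choice.

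Markers of cell types moved with the L-NAME comparison too. Their counts are read at an adjusted p under 0.05 in limma, against 28.7% higher and 17% lower of all probe sets. These shares were 16% and 29.7% with array median centring, and 22% and 21.9% with quantile normalization. All 7 cardiomyocyte markers measured were lower in L-NAME hearts (3 of 7 with quantile normalization), with summed signals of 16072 to 18736 in L-NAME, 20590 to 28637 in Met-fed and 25081 to 27621 in control hearts. Of 7 endothelial markers 4 were lower (7 with array median centring, 3 with quantile normalization). Their sums were 4967 to 5595 in L-NAME, 6005 to 7136 in Met-fed and 6592 to 7691 in control hearts. Of 7 leukocyte markers 5 were lower and 1 higher (5 and 0 with array median centring, 4 and 0 with quantile normalization). Their sums were 2534 to 3388, 3763 to 4360 and 3911 to 4577 in the same order. Of 8 fibroblast markers 2 were lower and 0 higher (4 and 0 with array median centring, 2 and 2 with quantile normalization), and the sums overlapped. Plasma cells carry much endoplasmic reticulum. Of their 6 markers 3 were higher (Sdc1, Prdm1 and Tnfrsf17) and 1, Xbp1, was lower in L-NAME hearts (2 and 3 with array median centring or quantile normalization). Their defining markers Jchain and Mzb1 were dim, with mean signals of 7.73 and 9.43 in L-NAME and 16.04 and 14.8 in control hearts. The summed signals of the plasma cell markers overlapped between L-NAME and control hearts, at 710 to 855 in L-NAME, 885 to 1158 in Met-fed and 753 to 1003 in control hearts. Of 4 smooth muscle markers 2 were higher and 1 lower in L-NAME hearts with each scaling, and of 4 atrial markers 0 passed the test in limma. Of 3 mesothelial markers 2 were higher (0 with array median centring, 1 with quantile normalization). Of 3 blood markers 1 was lower and 0 higher (1 and 0 with array median centring, 0 and 1 with quantile normalization). The part of these markers in the chaperone values was not tested.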

How the data were processed

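Left ventricle RNA was read on 13 Affymetrix Rat Genome arrays. The deposited intensity values are MAS5 signals made by the authors, and the MAS5 version is not given in the sources used here. They are on a linear scale. Once 2% of the values had been trimmed from either end, the arrays had a common mean of 150. The main fit used them as deposited. The number of arrays limits precision.

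Log2 signals of 31042 probe sets (31099 less 57 controls) were fitted in limma 3.58.1 (R 4.3.3), with a mean for each group over 13 arrays and a variance trend. Benjamini-Hochberg adjustment ran over all of them, with 0.05 as the threshold. Exact permutation tests (2-sided) took every split of 4 and 5 arrays. The platform annotation gave 20826 probe sets 1 symbol, 436 several and 9780 none, and the brightest probe set stood for a gene. Promoters came from RefSeq (GRCr8). The fit was tested on simulated data.

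The members and lists were chosen with earlier results of these data known. From each list of other genes, the 4 with the smallest p for L-NAME against control were named, and other names were added after their values were seen. The alternatives were quantile normalization, array median centring, an added offset of 16 or 50, removal of probe sets dimmer than 31.9 on average, a fit of the compared groups alone or without the trend, the methods' t-test in both forms, a replicate block, averaged probe sets, and leaving out each array.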

Additional observations from a re-analysis of the deposited data

Results flagged for a closer look

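One array stood apart from its group among the chaperone probe sets. In the dimmer probe set of Hyou1 (1370665_at), control replicate 2 had a log2 signal of 2.78, against 3.17 to 3.33 on the other 4 control arrays, or signals of 6.87 against 9.01 to 10.1. Its gap to the next array was 0.711 of the range of the group. Of 36 groups of arrays looked at, 1 was found, and chance gives about 5%.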

How the results depend on the processing

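The number of chaperones called in L-NAME against control was 7 or 8 under all 24 alternatives. That of the other 110 genes was 68 to 82 against 79. The split between higher and lower depended on the array scaling as given above. For the other 110 genes it also depended on the choice of probe set. With the probe sets of each gene averaged it was 65 higher and 16 lower, against 26.9% and 15.4% of everything in that fit. Of single chaperones, Hspa5 turned to 0.22 with quantile normalization and Calr to -0.22 with array median centring. No other chaperone changed direction in L-NAME against control. Calls were lost for Dnajb9 with quantile normalization and for Pdia4 with array median centring. They were gained for Hspa5 with array median centring and for Calr with quantile normalization or without control replicate 2. The counts include Hyou1 and Sdf2l1, whose control signals took part in the choice, so single calls of these genes are not given. The median difference of the 10 chaperones in Met-fed against control was 0.40 to 0.46 under the other settings and 0.30 to 0.56 with 1 array left out. The count without overlap was 3 to 5 with 1 array left out and 2 with array median centring, and over these settings the share of all probe sets higher without overlap was 0.937% to 3.23%. The causes were not tested. Same-numbered arrays correlated by -0.21 to 0.26 in their deviations from the group means, and 6 of 24 correlated best with their own number. The main fit did not use the numbers as pairs, and these correlations cannot show whether the samples were paired. With a replicate block 8 chaperones and 77 of the other genes were called.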

Other observations

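Subunits of the same enzyme stood on opposite sides in L-NAME hearts, a pattern singled out after the values were seen. Each subunit was read by its brightest probe set only, and any other probe sets of these genes are not given. Glucosidase II needs both Ganab, its catalytic subunit, and Prkcsh. Ganab (1373366_at) had signals of 283, 322, 285 and 338 in L-NAME, 125, 86.7, 97.6 and 102 in Met-fed and 99.6, 92.7, 77.8, 77.6 and 66.8 in control hearts. Prkcsh (1388371_at) had 218, 220, 207 and 218 in L-NAME, 649, 679, 750 and 627 in Met-fed and 761, 727, 753, 799 and 810 in control hearts. The L-NAME arrays lay outside the range of the other 9 arrays in both genes. Of all probe sets, 40.3% had no overlap between L-NAME and control arrays. Oligosaccharyltransferase, which attaches the sugars, showed the same split. Ddost (1372247_at) had 298, 350, 342 and 296 in L-NAME and 121, 93.4, 119, 88.0 and 117 in control hearts, and Dad1 (1367465_at) had 775, 665, 748 and 694 in L-NAME and 1479, 1325, 1533, 1403 and 1538 in control hearts. Of its other subunits, Ostc was higher by 0.49 ± 0.10, Stt3a and Stt3b were lower by log2 differences of -0.48 ± 0.12 and -0.30 ± 0.08, and Rpn1 and Rpn2 had differences of -0.05 ± 0.16 and 0.13 ± 0.09 that did not pass the test in limma.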
